A study of Mus musculus with 40 samples.

Results

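RNA was compared between mouse cardiac fibroblasts that received transforming growth factor β (TGFβ, 10 ng/ml) for 24 h and fibroblasts that received no ligand, here called CTRL. The comparison used 8 of the 40 libraries of the series, 4 with TGFβ and 4 CTRL, paired by their replicate numbers 1 to 4. All of these cells came from adult male mice of a C57BL/6J background with loxP sites in both copies of Map3k7 (TAK1fl/fl), the gene for TGFβ-activated kinase 1 (TAK1). They carried an adenovirus in which the CMV promoter drives LacZ, a control gene with no Cre recombinase, so that TAK1 was left intact, and they were serum-starved at passage 1 after growth in medium with serum and bFGF. Each value is therefore that of a cultured, virus-treated fibroblast, CTRL included. The question of the comparison was what TGFβ does to the transcriptome while TAK1 is present. The other 3 LacZ groups were used to test where TGFβ differed from other ligands, and all 40 libraries entered the filter on low counts and 1 alternative fit. Their 24 h ligands were bFGF at 20 ng/ml, TNFα at 10 ng/ml and IL-1β at 15 ng/ml.

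TGFβ is secreted in a latent complex, and once released it binds a pair of serine/threonine kinase receptors that phosphorylate SMAD2 and SMAD3. These join SMAD4 and act on genes in the nucleus, and the receptors also signal through other kinases, TAK1 among them. In the heart TGFβ is best known as the signal that turns resting fibroblasts into myofibroblasts, cells with contractile stress fibres that lay down scar matrix.

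The measurement was the number of reads per gene in poly-A RNA, scaled to the library total (CPM) with TMM normalization factors. Totals lay between 30980998 and 51264530 counts in the CTRL libraries and between 30591627 and 51228185 in the TGFβ libraries, so depth did not separate the groups. TMM factors were 1.09 to 1.22 in CTRL and 0.805 to 0.913 with TGFβ, and the 10 genes with most reads over the 8 libraries took 5.65% to 8.25% of counts in CTRL and 10.7% to 11.2% with TGFβ. Of the 25210 genes tested, the median log2 fold change was -0.17, and over the 11026 genes at 5 CPM or more in a group it was 0.09. Libraries of number 2 stood apart from the others in both groups, by the largest pairwise differences in counts, and results that rest on them are given without them. Fibroblast genes were high in all 8 libraries, with Col1a1, the gene for a chain of type I collagen, at 3812 to 5384 CPM in CTRL and 17796 to 25322 CPM with TGFβ, and Pdgfra, the receptor that marks resting cardiac fibroblasts, at 940.3 to 1743 CPM in CTRL and 236 to 358 CPM with TGFβ. In such bulk RNA, fewer cells of a type and less RNA per cell cannot be told apart.

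TGFβ changed the RNA of a large part of the genome. At an adjusted p of at most 0.05 by edgeR's quasi-likelihood test with the replicate number as a block, 5020 genes (19.9% of those tested) were higher with TGFβ and 5908 (23.4%) were lower. Without the replicates of number 2 the counts were 5032 and 5742. With edgeR's filterByExpr filter, which drops genes with few reads, 4937 of 15413 genes were higher and 5585 lower. Both are larger shares than those over all genes tested, to which the gene lists below are compared. Of the genes that passed, 1722 rose and 3361 fell by at least 1 on the log2 scale, that is by a factor of 2 or more. The plot of all genes by mean level shows that the large rises reached into the most abundant RNAs.

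**Figure D1:**
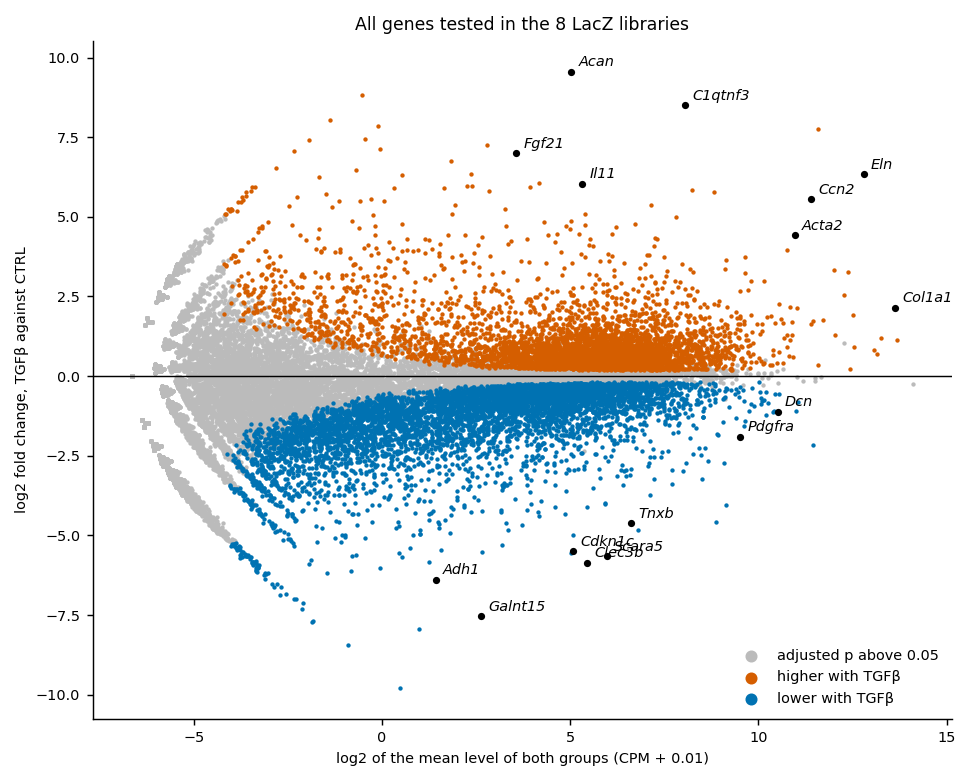
Each point is 1 of the 25210 genes tested, by the log2 of its mean level over both groups (CPM + 0.01, x axis) and its log2 fold change of TGFβ against CTRL (y axis). Orange points passed as higher, blue points as lower and grey points did not pass, and among named genes Eln joined a high level to a log2 fold change of 6.34.

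The 3 genes that mark the myofibroblast all rose. Acta2 (chr19:34241090-34255590, minus strand, GRCm38) encodes the smooth muscle α-actin of stress fibres. It stood at 159, 245, 158 and 108 CPM in CTRL libraries 1 to 4 and at 3920.2, 6761, 2737 and 1993 CPM in the TGFβ libraries 1 to 4. The lowest TGFβ library was far above the highest CTRL library, and the rise was 21.6-fold (log2 fold change 4.43 ± 0.14 (SE), adjusted p = 3.08e-06). Col1a1 was at 5384, 3812, 4877 and 4634 CPM in CTRL and 21805, 25322, 17796 and 18083 CPM with TGFβ, again with no overlap (log2 fold change 2.14 ± 0.15 (SE), adjusted p = 3.31e-05). Postn, the gene for the matrix protein periostin, went from 749, 383, 744 and 857 CPM to 2891, 2934, 2579.9 and 3444 CPM (log2 fold change 2.17 ± 0.18 (SE), adjusted p = 8.26e-05). Its 4 TGFβ libraries lay close together, while the CTRL library of number 2 was lowest.

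Genes of the contractile apparatus rose almost as a body. Of 30 contractile and stress-fibre genes, 26 passed as higher and 3 as lower, with a median log2 fold change of 1.42 against -0.17 over all genes tested. Without number 3, without number 4 or without the block 1 was lower. Tagln, which encodes the actin-binding protein transgelin, was at 182, 181, 126 and 110.2 CPM in CTRL and at 1975, 1871, 1077 and 874 CPM with TGFβ (log2 fold change 3.22 ± 0.10 (SE), adjusted p = 3.06e-06). Cnn1 encodes calponin of smooth muscle, and its levels were 1.0, 6.24, 1.84 and 1.59 CPM in CTRL and 41.3, 227, 37.1 and 22.2 CPM with TGFβ (log2 fold change 4.73 ± 0.24 (SE), adjusted p = 1.25e-05). Library 2 was the highest of its group for Cnn1 on both sides, and the rise was present in 4 of 4 pairs. Myl9, a regulatory light chain of myosin, rose from 40.1 ± 15.0 to 249 ± 138 CPM (mean ± SD, n = 4 libraries; log2 fold change 2.56 ± 0.10 (SE), adjusted p = 6.39e-06). Actg2, the γ-actin of smooth muscle, rose from 0.864 ± 0.193 to 20.8 ± 23.6 CPM (log2 fold change 4.23 ± 0.44 (SE), adjusted p = 0.000207). Acta2 and Actg2 have near-identical coding sequences, and how reads that fit both were counted is not given in the sources used here. Without number 2 the log2 fold change of Actg2 was 3.43. The genes called lower were less steady. Mylk, the kinase that activates myosin light chains in smooth muscle, had overlapping groups (-1.70 ± 0.18, adjusted p = 0.000197) and did not pass without the block (0.204). Synpo2, of actin bundles (-0.83 ± 0.24, adjusted p = 0.0271), and Des, the gene for desmin (-0.88 ± 0.23, adjusted p = 0.0161), did not pass without number 3 (0.13 and 0.0865) or number 4 (0.125 and 0.06). Synpo2 also did not pass without number 1 (0.12), nor Des without the block (0.0506). Myh11, the myosin heavy chain of mature smooth muscle, was at a mean of 2.13 CPM in CTRL and 4.84 CPM with TGFβ with number 2 far above the rest, and it did not pass (adjusted p = 0.579), although without number 2 it was lower (log2 fold change -0.79, adjusted p = 0.03).

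Many contractile genes are known targets of serum response factor (SRF), which binds the CArG box, and so the 300 bases around each start site were searched for it. The motif was CC, any 6 letters of A or T, then GG, which reads as a CArG box on either strand. RefSeq promoters of GRCm38.p6, from 250 bases before to 50 bases after the start, matched 12842 of the 16752 protein-coding genes looked for, and 207 of these held the motif (1.61%). It was held by 75 of 3725 matched genes that were higher with TGFβ (2.01%), by 41 of 3667 that were lower (1.12%) and by 91 of 5450 that did not pass (1.67%). Of the 26 contractile genes matched, 4 held it (15.4%), namely Myl9, Myl6, Vcl and Cnn2. The letters CAGAC, on either strand, which SMADs are known to bind, were searched in the same windows. They stood in 53.3% of all matched genes, in 51.0% of those higher and 54.2% of those lower, in 13 of 26 contractile genes and in 5 of 11 SMAD and feedback genes. The longer motif GTCTAGAC stood in 42 of all matched genes (0.327%), in 16 of those higher and 10 of those lower, in 0 of 26 contractile genes and in 1 of 11 SMAD and feedback genes. The windows of Myl9, of Vcl (vinculin, which ties actin to adhesion sites), of Cnn2 (a calponin of non-muscle cells) and of Srf itself are shown because each holds the motif and each gene rose, with the motif in capitals.
Myl9, chr2:156775214-156775513, plus strand: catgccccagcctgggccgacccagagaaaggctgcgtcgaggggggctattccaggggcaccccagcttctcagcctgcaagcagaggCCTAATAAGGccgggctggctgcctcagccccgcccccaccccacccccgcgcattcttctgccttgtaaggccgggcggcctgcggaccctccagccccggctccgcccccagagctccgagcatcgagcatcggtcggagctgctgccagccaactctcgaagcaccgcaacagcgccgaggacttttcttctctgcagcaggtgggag
Vcl, chr14:20929148-20929447, plus strand: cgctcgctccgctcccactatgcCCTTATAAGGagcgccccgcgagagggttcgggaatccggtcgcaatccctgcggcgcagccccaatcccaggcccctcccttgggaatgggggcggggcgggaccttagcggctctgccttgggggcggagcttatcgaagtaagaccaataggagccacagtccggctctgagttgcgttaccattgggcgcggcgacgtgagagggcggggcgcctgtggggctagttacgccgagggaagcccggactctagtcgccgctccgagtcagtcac
Cnn2, chr10:79988350-79988649, plus strand: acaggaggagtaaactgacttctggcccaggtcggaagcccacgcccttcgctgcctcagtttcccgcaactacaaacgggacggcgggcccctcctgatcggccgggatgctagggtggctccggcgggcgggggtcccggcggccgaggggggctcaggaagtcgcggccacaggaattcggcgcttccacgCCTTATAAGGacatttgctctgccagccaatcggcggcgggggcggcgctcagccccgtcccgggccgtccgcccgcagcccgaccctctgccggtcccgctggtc
Srf, chr17:46556113-46556412, minus strand: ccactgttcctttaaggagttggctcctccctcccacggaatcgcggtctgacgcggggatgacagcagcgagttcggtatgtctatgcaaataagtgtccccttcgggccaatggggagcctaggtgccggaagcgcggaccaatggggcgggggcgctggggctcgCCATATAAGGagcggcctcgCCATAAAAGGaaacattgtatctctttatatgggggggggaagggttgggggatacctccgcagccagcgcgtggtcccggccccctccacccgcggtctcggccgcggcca
The motif begins 161 bases before the start of Myl9, 227 before that of Vcl and 56 before that of Cnn2, and Srf holds it at 82 and at 62 bases before the start. Vcl rose from 282 ± 56.9 to 604 ± 179 CPM (n = 4; log2 fold change 1.08 ± 0.08 (SE), adjusted p = 5.46e-05). Cnn2 rose from 209 ± 34.9 to 570.4 ± 184 CPM (log2 fold change 1.41 ± 0.10 (SE), adjusted p = 3.79e-05). A match to these letters is a description of the window and not evidence of binding. These exact letters were not in the window of Acta2.

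Among 13 regulators of the actin and SRF axis, 7 passed as higher and 2 as lower (median log2 fold change 0.47). The number lower was 1 without number 1 and 0 without number 3 or number 4. Srf was at 23.5, 25.2, 23.4 and 21.3 CPM in CTRL and 65.5, 75.1, 57.2 and 54.3 CPM with TGFβ, with all 4 TGFβ libraries above all 4 CTRL libraries (log2 fold change 1.42 ± 0.08 (SE), adjusted p = 1.57e-05). Arhgef2, an exchange factor that activates the GTPase RhoA, rose from 161 ± 24.8 to 356 ± 22.1 CPM (log2 fold change 1.16 ± 0.10 (SE), adjusted p = 7.42e-05). Mrtfb, a coactivator of SRF, was among those that fell (-0.30 ± 0.08, adjusted p = 0.0142), with adjusted p-values of 0.068 without number 3 and 0.0659 without number 4. Myocd, the coactivator that is specific to cardiac and smooth muscle, had 26 reads over the 4 CTRL libraries and 28 over the 4 TGFβ libraries, and no difference was detectable at this depth.

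**Figure D2:**
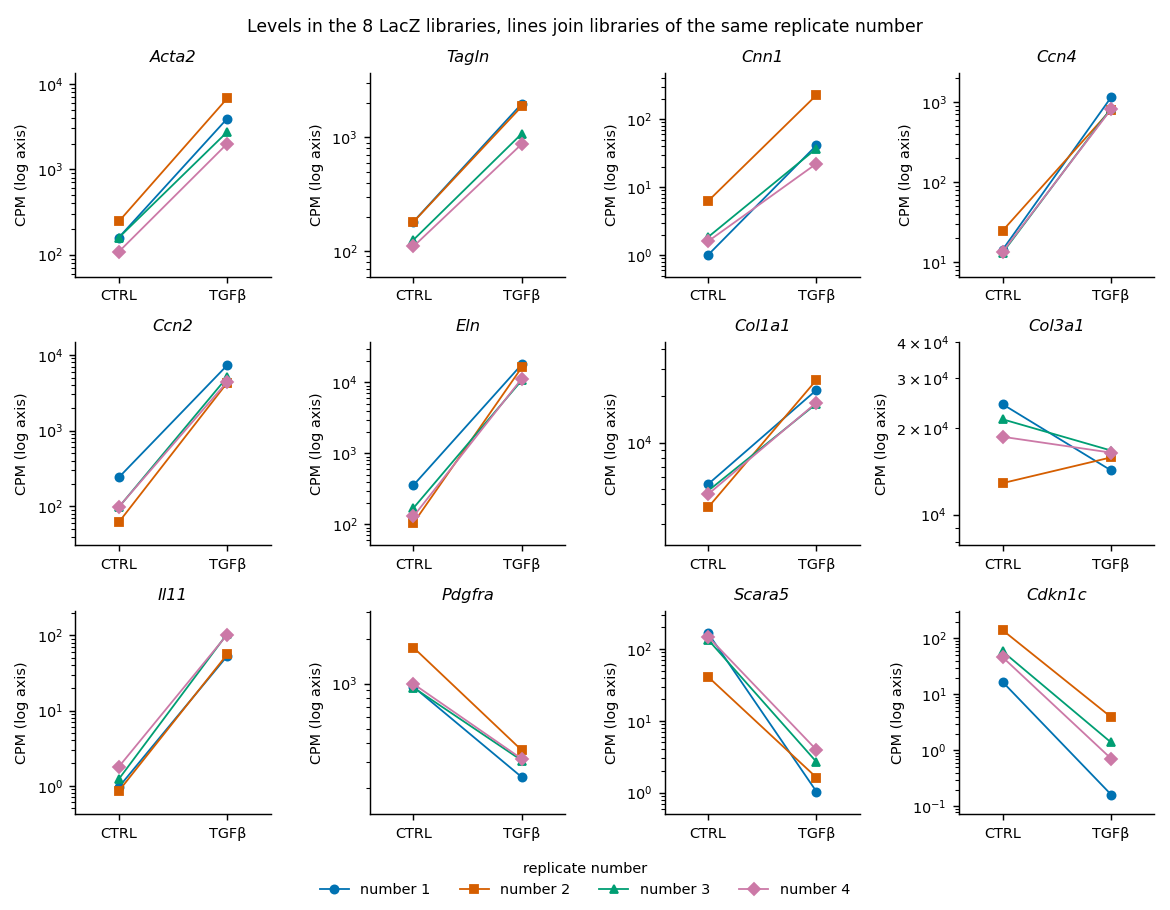
Levels in CPM (log axis) of 12 genes in the 4 CTRL and 4 TGFβ libraries, with 1 point per library, and lines that join libraries of the same replicate number. For the 11 genes other than Col3a1 the 4 TGFβ libraries lie wholly above or wholly below the 4 CTRL libraries, while for Col3a1 the groups overlap.

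Genes of the TGFβ pathway changed among ligands, activators and receptors. Of 26 such genes, 19 passed as higher and 5 as lower (median log2 fold change 0.95). Without number 3, without number 4 or without the block 3 were lower. Tgfb1, the ligand gene itself, stood at 35.8, 28.0, 32.6 and 30.9 CPM in CTRL and 237, 91.9, 186 and 184 CPM with TGFβ (log2 fold change 2.38 ± 0.17 (SE), adjusted p = 3.51e-05). Tgfb2 rose by 1.03 ± 0.07 and Tgfb3 by 0.87 ± 0.13 on the log2 scale (adjusted p = 3.59e-05 and 0.0011), so that all 3 ligand genes were higher. Inhba, which encodes a subunit of the related ligand activin A, rose from 55.3 ± 7.45 to 431 ± 36.2 CPM (log2 fold change 2.97 ± 0.08 (SE), adjusted p = 2.28e-06). Inhbb, the alternative activin subunit, fell (-2.11 ± 0.23, adjusted p = 0.000251). Fstl3, a secreted inhibitor of activin, was at 29.9, 16.1, 28.9 and 26.3 CPM in CTRL and 427, 249, 353 and 305 CPM with TGFβ (log2 fold change 3.73 ± 0.10 (SE), adjusted p = 1.91e-06). Ltbp2, a protein of elastic microfibrils named after the latent TGFβ binding protein family, rose from 217 ± 69.2 to 3277 ± 746 CPM (log2 fold change 3.95 ± 0.11 (SE), adjusted p = 2.28e-06). Thbs1, thrombospondin 1, which can release TGFβ from its latent form, rose from 816 ± 574 to 7366 ± 2036 CPM (log2 fold change 3.35 ± 0.22 (SE), adjusted p = 3.02e-05). The receptors went different ways. Tgfbr1 rose slightly (0.31 ± 0.07, adjusted p = 0.00859) and did not pass without number 3 (adjusted p = 0.058) or number 4 (0.0507), or in the fit of 40 libraries (0.056), Tgfbr2 fell (-0.46 ± 0.08, adjusted p = 0.00311), and Tgfbr3, the coreceptor betaglycan, was at 117, 307, 97.7 and 115 CPM in CTRL and at 12.5, 27.1, 16.7 and 20.7 CPM with TGFβ. Every CTRL library for Tgfbr3 was above every TGFβ library, and CTRL library 2 was the highest (log2 fold change -2.94 ± 0.19 (SE), adjusted p = 2.52e-05).

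Of 20 SMADs and SMAD feedback genes, 15 were higher and 3 lower (median log2 fold change 0.37). Smad7, the inhibitory SMAD that blocks the receptor, was at 26.5, 11.9, 23.7 and 24.1 CPM in CTRL and 123, 92.8, 124 and 130.3 CPM with TGFβ (log2 fold change 2.49 ± 0.13 (SE), adjusted p = 1.23e-05). Skil, a corepressor that binds SMADs, rose from 38.6 ± 2.8 to 216 ± 19.8 CPM (log2 fold change 2.48 ± 0.07 (SE), adjusted p = 2.28e-06). Pmepa1, a membrane protein that sequesters SMADs, rose from 223 ± 7.94 to 1464 ± 191 CPM (log2 fold change 2.71 ± 0.09 (SE), adjusted p = 3.08e-06). These 3 rose by factors of 5.63, 5.58 and 6.53. Bambi, a pseudoreceptor that dampens TGFβ signalling, fell from 13.7 ± 2.64 to 10.4 ± 1.94 CPM in 4 of 4 pairs with overlapping groups (log2 fold change -0.40 ± 0.11 (SE), adjusted p = 0.0213), and it did not pass without the block (0.0942) or without number 1 (0.0852), number 3 (0.0962) or number 4 (0.0975). Smad3 was at 129, 186, 137 and 148 CPM in CTRL and 80.3, 67.8, 85.8 and 91.4 CPM with TGFβ (log2 fold change -0.88 ± 0.14 (SE), adjusted p = 0.00163). Smad9, which belongs to the BMP branch, fell as well (-1.81 ± 0.19, adjusted p = 0.000187). Smad6, the inhibitor of the BMP branch, was at 18.9 to 60.7 CPM in CTRL and 27.5 to 47.5 CPM with TGFβ, with overlapping groups (adjusted p = 0.868).

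Bone morphogenetic proteins (BMPs) are relatives of TGFβ that signal through other SMADs to the Id genes. Of 24 BMP ligands, antagonists and Id targets, 7 were higher (29.2%) and 10 lower (41.7%), against 19.9% and 23.4% of all genes tested. Their median log2 fold change was -0.23, against -0.17 over all genes tested. Id1, a direct BMP target, was at 27.4, 23.1, 30.9 and 34.9 CPM in CTRL and 8.7, 16.9, 10.8 and 8.24 CPM with TGFβ (log2 fold change -1.40 ± 0.24 (SE), adjusted p = 0.00225), whereas Id3 was at 200.1 to 243 CPM in CTRL and 164 to 212 CPM with TGFβ with overlapping groups (adjusted p = 0.123, and 0.0207 without number 2). Bmp4 fell in 4 of 4 pairs, from 73.4, 13.4, 35.1 and 27.1 to 20.95, 5.9, 15.0 and 11.2 CPM, although library 1 with TGFβ was above library 2 of CTRL (log2 fold change -1.38 ± 0.12 (SE), adjusted p = 9.5e-05). Gdf10, a distant family member, fell from 7.38 ± 3.75 to 0.497 ± 0.334 CPM (log2 fold change -3.88 ± 0.20 (SE), adjusted p = 1.2e-05). Chrdl1, a BMP antagonist, fell from 7.31 ± 3.8 to 0.893 ± 0.575 CPM (log2 fold change -2.87 ± 0.49 (SE), adjusted p = 0.0022, with -2.25 without number 1 and -3.63 without number 2). The receptor genes Bmpr1b and Bmpr2 rose by 2.30 ± 0.12 and 0.97 ± 0.08 (adjusted p = 1.36e-05 and 6.71e-05). Grem1, another antagonist, rested on 1 library. It was at 117, 201, 82.0 and 72.1 CPM in CTRL and 53.2, 1274, 77.7 and 63.3 CPM with TGFβ, and its log2 fold change was 0.25 ± 0.56 with all pairs (adjusted p = 0.764) and -0.46 without number 2 (adjusted p = 0.105).

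Collagen chain genes changed in both directions. Of 43 chains tested, 16 were higher and 15 lower, with a median log2 fold change of -0.13, and of the 26 at 5 CPM or more in a group, 14 were higher and 6 lower. Both chains of type I collagen rose, and so did Col5a1 and Col5a2 of type V collagen, which is built into the same fibrils, while the type V chain Col5a3 did not pass (-0.13 ± 0.09, adjusted p = 0.3). Col1a2 was at 7103, 4682, 6092 and 5824 CPM in CTRL and 14063, 15071, 12539 and 12549 CPM with TGFβ (log2 fold change 1.20 ± 0.12 (SE), adjusted p = 0.000177). Col5a1 rose from 1540.1 ± 228 to 5154 ± 297 CPM (log2 fold change 1.75 ± 0.10 (SE), adjusted p = 1.8e-05). Col3a1, the other main fibrillar collagen of the heart, was at 24271, 12878, 21511 and 18691 CPM in CTRL and 14263, 15836, 16737 and 16454 CPM with TGFβ. Its groups overlapped because the CTRL library of number 2 was lowest, and it did not pass (log2 fold change -0.25 ± 0.15 (SE), adjusted p = 0.239), whereas without number 2 it was lower (log2 fold change -0.44, adjusted p = 0.0184). Per kilobase of exon, Col3a1 was at 1970.0 CPM and Col1a1 at 713 CPM in CTRL, and with TGFβ the order was turned, at 1612 and 3162 CPM per kilobase.

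Col2a1, the fibrillar collagen of cartilage, was at 18.5, 2.54, 13.5 and 17.4 CPM in CTRL and 519, 33.5, 284 and 326 CPM with TGFβ (log2 fold change 4.33 ± 0.17 (SE), adjusted p = 5.97e-06), with library 2 lowest in both groups. Col11a1, its partner chain, rose from 197 ± 47.9 to 1251 ± 328 CPM (log2 fold change 2.66 ± 0.23 (SE), adjusted p = 8.53e-05). Col8a2 rose from 2.24 ± 1.43 to 45.8 ± 29.7 CPM (log2 fold change 4.23 ± 0.59 (SE), adjusted p = 0.000817, with 3.48 without number 2). Col7a1, the collagen of anchoring fibrils, rose from 8.63 ± 2.92 to 121 ± 12.7 CPM (log2 fold change 3.84 ± 0.20 (SE), adjusted p = 1.36e-05). Col12a1, a collagen that sits on the surface of fibrils, rose from 102 ± 48.6 to 1504 ± 1114 CPM (log2 fold change 3.74 ± 0.13 (SE), adjusted p = 4.18e-06). Col8a1, the partner of Col8a2, rose by 1.86 ± 0.10 (adjusted p = 1.31e-05). Col4a1, of basement membranes, rose by 0.63 ± 0.13 (adjusted p = 0.00518, and 0.0623 without the replicate block). Col15a1 was at 676 to 1374 CPM in CTRL and 519 to 1379 CPM with TGFβ with no difference past the threshold (adjusted p = 0.889). Among those that fell, Col27a1 went from 25.7 ± 6.58 to 9.45 ± 2.46 CPM (log2 fold change -1.44 ± 0.16 (SE), adjusted p = 0.000238). Col18a1, the source of endostatin, fell by 0.35 (adjusted p = 0.00881, 0.0506 without the block and 0.066 in the fit of 40 libraries). Col10a1, a collagen of growth-plate cartilage, passed as higher (adjusted p = 0.034) at a level of 0.761, 6.65, 0.541 and 0.573 CPM with TGFβ, and it did not pass without number 2 (adjusted p = 0.469), without number 3 (0.11), without number 4 (0.101) or without the block (0.291).

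**Figure D3:**
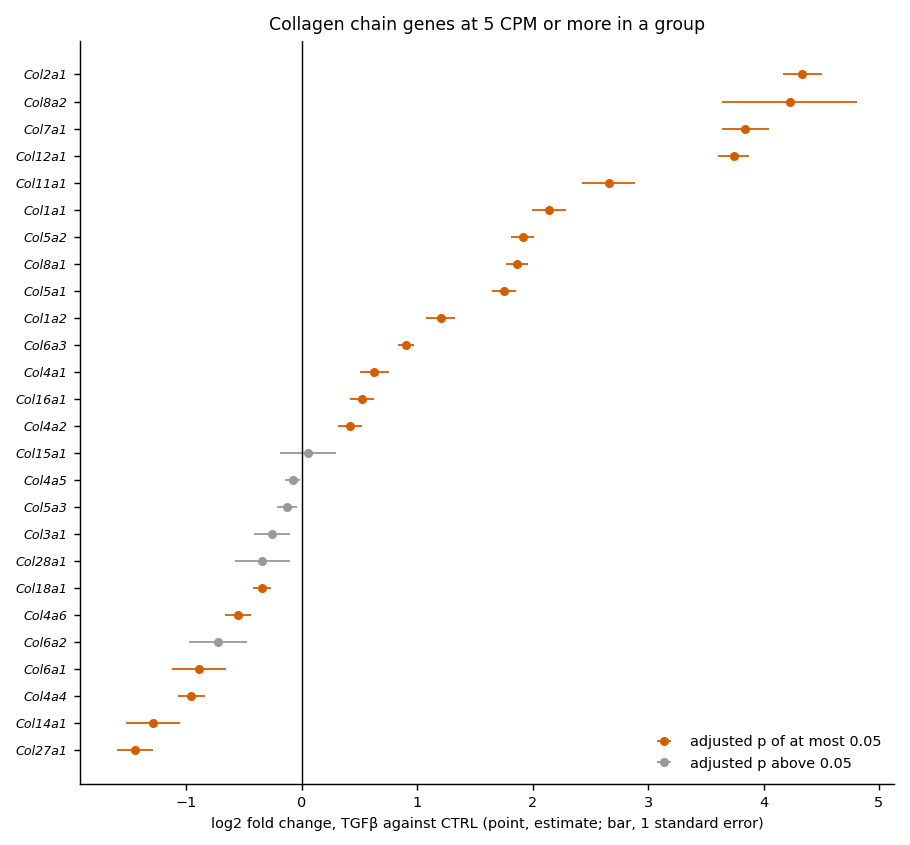
Log2 fold change of TGFβ against CTRL with 1 standard error for the 26 collagen chain genes at 5 CPM or more in a group. Orange points passed an adjusted p of 0.05 and grey points did not, from Col2a1 at 4.33 to Col27a1 at -1.44.

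Of 35 collagen processing and cross-linking genes, 26 were higher and 0 lower by edgeR, with 9 that did not pass (median log2 fold change 1.16). At an unadjusted p of 0.05, 3 were lower. By DESeq2, without number 1 or without number 2, 1 was lower, and with the GC correction, with protein-coding genes only or in the fit of 40 libraries 2 were. Lox, the lysyl oxidase that cross-links collagen and elastin, was at 1133, 1396, 710.3 and 730.0 CPM in CTRL and 9116, 14316, 7430.1 and 7576 CPM with TGFβ (log2 fold change 3.28 ± 0.09 (SE), adjusted p = 2.28e-06). Its relatives Loxl2 and Loxl3 rose by 1.90 ± 0.13 and 2.43 ± 0.13 (adjusted p = 3.55e-05 and 1.25e-05). Tll1, a protease that trims procollagen, was at 43.9, 28.7, 55.1 and 54.6 CPM in CTRL and 294, 298, 298 and 307 CPM with TGFβ (log2 fold change 2.76 ± 0.16 (SE), adjusted p = 1.84e-05), and its 4 TGFβ libraries were almost level. Serpinh1, the collagen chaperone HSP47, rose from 1338 ± 255 to 4079.8 ± 185 CPM (log2 fold change 1.63 ± 0.13 (SE), adjusted p = 5.97e-05). The hydroxylases P4ha3 and Plod2 rose by 1.38 ± 0.24 and 0.71 ± 0.13 (adjusted p = 0.00231 and 0.0035).

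Genes of matricellular proteins, which sit in the matrix and signal to cells, had log2 fold changes from -4.62 to 5.90. Of 32, 13 were higher and 6 lower (median log2 fold change 0.15). Ccn2, long known as connective tissue growth factor, was at 242, 62.1, 98.0 and 98.6 CPM in CTRL and 7278, 4277, 5070.1 and 4409 CPM with TGFβ (log2 fold change 5.55 ± 0.21 (SE), adjusted p = 5.01e-06). Ccn4 was at 14.4, 24.8, 13.2 and 13.6 CPM in CTRL and 1137, 800.5, 829.6 and 806 CPM with TGFβ (log2 fold change 5.79 ± 0.23 (SE), adjusted p = 6.13e-06). Ccn1 rose from 87.4 ± 45.2 to 1040.5 ± 262 CPM (log2 fold change 3.66 ± 0.13 (SE), adjusted p = 3.92e-06). For Ccn2 and Ccn4 each TGFβ library was far above each CTRL library. Fn1, fibronectin, rose from 8334 ± 2139 to 18026 ± 3605 CPM (log2 fold change 1.13 ± 0.07 (SE), adjusted p = 2.24e-05). Tnc, tenascin C, was at 121, 288, 118 and 117 CPM in CTRL and 871, 4116, 689 and 789 CPM with TGFβ (log2 fold change 2.99 ± 0.21 (SE), adjusted p = 3.65e-05). Library 2 was the highest of its group on both sides. Cthrc1, a secreted protein of activated fibroblasts, was at 11.6, 201, 16.6 and 11.02 CPM in CTRL and 111, 536, 179 and 144 CPM with TGFβ. Cthrc1 rose in 4 of 4 pairs (log2 fold change 2.94 ± 0.37 (SE), adjusted p = 0.000519), but CTRL library 2 was above every TGFβ library except library 2, and without the block it did not pass (adjusted p = 0.139). On the other side, Tnxb, tenascin X, which spaces collagen fibrils, fell from 188 ± 63.8 to 7.62 ± 2.59 CPM (log2 fold change -4.62 ± 0.15 (SE), adjusted p = 3.08e-06). The basement membrane gene Nid2 fell from 458 ± 114 to 57.5 ± 9.86 CPM (log2 fold change -2.97 ± 0.18 (SE), adjusted p = 1.98e-05). Comp, a cartilage matrix protein, was at 4.06 to 15.3 CPM in CTRL and 5.72 to 16.8 CPM with TGFβ with overlapping groups (adjusted p = 0.579, and 0.0102 without number 1).

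Elastic fibre genes rose more often than they fell, 10 of 14 against 4 (median log2 fold change 0.94). Eln (chr5:134702593-134747323, minus strand), the gene for elastin, was at 357, 104, 170.0 and 129.7 CPM in CTRL and at 17979, 16304, 10730.1 and 11332 CPM with TGFβ. The rise was 80.8-fold (log2 fold change 6.34 ± 0.30 (SE), adjusted p = 1.02e-05), which brought elastin from 23.5 to 1739 CPM per kilobase of exon, the range of Acta2 (1754) and Fn1 (1543) with TGFβ. Mfap4 and Mfap5, proteins of the microfibrils on which elastin is laid down, rose by 2.20 ± 0.12 and 1.87 ± 0.10 (adjusted p = 1.63e-05 and 1.25e-05). Efemp1, of the fibulin family, fell from 942 ± 164 to 147 ± 44.9 CPM (log2 fold change -2.73 ± 0.19 (SE), adjusted p = 3.24e-05). Its relative Fbln1 fell from 359 ± 74.5 to 105 ± 12.5 CPM (log2 fold change -1.75 ± 0.14 (SE), adjusted p = 5.93e-05).

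Proteoglycan genes changed in both directions. Of 29 proteoglycan and hyaluronan genes, 10 were higher and 11 lower (median log2 fold change -0.20). Acan (chr7:79053483-79115099, plus strand), the large aggregating proteoglycan of cartilage, had the largest log2 fold change of the protein-coding genes that were at 5 CPM or more in a group with no overlap between the groups. It had 5, 2, 6 and 3 reads in the CTRL libraries and 668, 5805, 2959 and 970 reads in the TGFβ libraries, that is 0.107, 0.0406, 0.102 and 0.0839 CPM in CTRL and 18.2, 131, 76.2 and 34.7 CPM with TGFβ (log2 fold change 9.56 ± 0.34 (SE), adjusted p = 5.2e-07), and without number 2 the log2 fold change was 8.80. The cell surface proteoglycan gene Cspg4 rose from 17.9 ± 4.32 to 245 ± 36.7 CPM (log2 fold change 3.80 ± 0.14 (SE), adjusted p = 5.35e-06). Has2, a synthase of hyaluronan, rose from 8.85 ± 2.9 to 58.2 ± 8.41 CPM (log2 fold change 2.76 ± 0.13 (SE), adjusted p = 1.08e-05). Among small leucine-rich proteoglycans, which coat collagen fibrils, Bgn (biglycan) rose by 0.81 ± 0.13 (adjusted p = 0.00176), while Dcn (decorin) was at 2419, 1465, 2048 and 2016 CPM in CTRL and 749, 639.6, 1167 and 1186 CPM with TGFβ (log2 fold change -1.11 ± 0.15 (SE), adjusted p = 0.00074). Ogn and Omd, of the same family, fell by 2.66 and 2.54 on the log2 scale (adjusted p = 1.15e-05 and 1.23e-05).

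Of 43 matrix proteases and inhibitors, 14 were higher and 17 lower (median log2 fold change 0.02). Timp3, a tissue inhibitor of metalloproteinases, rose from 1574 ± 941 to 8322 ± 3400.4 CPM (log2 fold change 2.54 ± 0.14 (SE), adjusted p = 1.58e-05). Timp1, of the same family, rose from 535 ± 112 to 2039 ± 700.1 CPM (log2 fold change 1.88 ± 0.12 (SE), adjusted p = 2.38e-05). Plaur, the urokinase receptor, and Adamts12 rose by 3.17 ± 0.14 and 2.96 ± 0.12 (adjusted p = 8.79e-06 and 7.31e-06). Adam12 rose by 1.72 ± 0.28 (adjusted p = 0.00178). Mmp3, stromelysin, fell from 1169 ± 185 to 569.6 ± 201 CPM (log2 fold change -1.10 ± 0.17 (SE), adjusted p = 0.00134). The protease gene Adamts15 went from 25.6, 176, 28.7 and 23.9 CPM to 0.0272, 1.92, 1.75 and 1.0 CPM (log2 fold change -5.54 ± 0.49 (SE), adjusted p = 0.000102), where CTRL library 2 was the highest and the log2 fold change was -4.86 without number 2 and -6.21 without number 3.

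Of 16 integrin subunits, 7 were higher and 3 lower (median log2 fold change 0.27). Without number 2, 6 were lower. Itga5, which binds fibronectin, was at 83.3, 117, 88.5 and 106 CPM in CTRL and 1004, 1290.0, 889 and 855 CPM with TGFβ (log2 fold change 3.35 ± 0.11 (SE), adjusted p = 3.08e-06). Itga11, which binds collagen, and Itga4 rose by 2.55 ± 0.16 and 2.64 ± 0.08 (adjusted p = 2.64e-05 and 2.91e-06). Itga10, another collagen receptor, fell (-1.60 ± 0.19, adjusted p = 0.000355).

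Of 25 genes of the resting cardiac fibroblast, 0 passed as higher by edgeR and 19 as lower, with 6 that did not pass, none was higher at an unadjusted p of 0.05 or by DESeq2, and the median log2 fold change was -1.92. Pdgfra was at 951, 1743, 940.3 and 994 CPM in CTRL and 236, 358, 305 and 313 CPM with TGFβ (log2 fold change -1.90 ± 0.12 (SE), adjusted p = 2.48e-05). Scara5, a scavenger receptor of adventitial fibroblasts, was at 166, 41.0, 135 and 148 CPM in CTRL and 1.03, 1.62, 2.68 and 3.94 CPM with TGFβ (log2 fold change -5.66 ± 0.36 (SE), adjusted p = 2.48e-05). Library 2, the lowest in CTRL, was no exception to the fall. Inmt, a methyltransferase gene, fell from 12.3 ± 6.9 to 0.255 ± 0.229 CPM (log2 fold change -5.52 ± 0.28 (SE), adjusted p = 1.19e-05). Cd34, a surface glycoprotein of resting stromal cells, and Gsn, gelsolin, which severs actin filaments, fell by 2.46 and 2.16 on the log2 scale (adjusted p = 3.7e-06 and 1.14e-05).

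Of 40 transcription factors of fibroblasts and mesenchyme, 15 were higher and 15 lower (9 without the block; median log2 fold change -0.08). Meox1, a homeobox factor known from activated cardiac fibroblasts, was at 1.54, 2.17, 1.98 and 2.57 CPM in CTRL and 85.2, 30.6, 52.6 and 59.5 CPM with TGFβ (log2 fold change 4.71 ± 0.28 (SE), adjusted p = 1.96e-05). Scx, scleraxis, a factor of tendon and fibroblasts, was at 0.919, 1.52, 2.05 and 1.43 CPM in CTRL and 7.12, 40.9, 14.3 and 6.02 CPM with TGFβ (log2 fold change 3.28 ± 0.38 (SE), adjusted p = 0.000355, with 2.65 without number 2). Runx1 rose from 19.5 ± 6.77 to 145 ± 32.5 CPM (log2 fold change 2.92 ± 0.25 (SE), adjusted p = 8.05e-05). Sox9, a factor of chondrocytes, rose by 0.72 ± 0.10 (adjusted p = 0.001). Tcf21, a factor of resting cardiac fibroblasts, fell in 4 of 4 pairs (log2 fold change -0.72 ± 0.15 (SE), adjusted p = 0.00641), but library 2 of CTRL was within the range of TGFβ and the difference did not pass without the block (adjusted p = 0.0917). Klf15 fell from 17.3 ± 3.85 to 5.72 ± 1.52 CPM (log2 fold change -1.58 ± 0.25 (SE), adjusted p = 0.00159). Of 17 matrifibrocyte and skeletal matrix genes, 3 were higher, Alpl (alkaline phosphatase, 2.32 ± 0.31, adjusted p = 0.000696) among them, and 6 lower, among them Mgp, an inhibitor of calcification (-0.87 ± 0.14, adjusted p = 0.00203), with a median log2 fold change of -0.87.

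Of 37 chemokines and inflammatory cytokines, 7 were higher and 14 lower (18.9% and 37.8%, against 19.9% and 23.4% of all genes tested; median log2 fold change -0.89). Il11, a cytokine of the IL-6 family with known roles in fibrosis, was at 0.962, 0.854, 1.23 and 1.79 CPM in CTRL and 53.0, 55.9, 105 and 102 CPM with TGFβ (log2 fold change 6.03 ± 0.13 (SE), adjusted p = 1e-06). Il6 was at 2.91, 1.65, 2.06 and 2.69 CPM in CTRL and 94.9, 40.1, 102 and 88.4 CPM with TGFβ (log2 fold change 5.10 ± 0.16 (SE), adjusted p = 3.08e-06). Ptgs2, which encodes cyclooxygenase 2, the enzyme that starts prostaglandin synthesis, rose from 10.7 ± 5.52 to 597 ± 224 CPM (log2 fold change 5.85 ± 0.12 (SE), adjusted p = 7.48e-07). All 3 rose from low levels in every pair. Cxcl12, a chemokine that retains leukocytes and progenitor cells, fell from 2720.2 ± 538 to 1534 ± 245 CPM (log2 fold change -0.82 ± 0.12 (SE), adjusted p = 0.00119). Cxcl5 and Cxcl1, which draw neutrophils, fell by 2.72 and 2.14 (adjusted p = 0.00297 and 0.00103), with a change of -2.13 for Cxcl5 without number 2. Ccl2, which draws monocytes, was at 8.83, 23.8, 7.93 and 17.8 CPM in CTRL and 6.9, 15.1, 12.5 and 15.8 CPM with TGFβ, with overlapping groups (adjusted p = 0.609).

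Many complement and interferon genes were lower with TGFβ. Of 20 complement and acute-phase genes, 1 was higher and 16 lower, against 0 and 10 without the block and 2 higher without number 1 (median log2 fold change -1.04). C1s1, a protease of the classical pathway, was at 375, 496, 278 and 324 CPM in CTRL and 32.5, 57.1, 45.2 and 54.2 CPM with TGFβ (log2 fold change -2.96 ± 0.17 (SE), adjusted p = 1.67e-05). C3, the component on which all pathways converge, fell from 525 ± 161 to 219.7 ± 75.4 CPM (log2 fold change -1.28 ± 0.26 (SE), adjusted p = 0.00528).

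Of 34 interferon-stimulated and antigen presentation genes, 0 were higher and 31 lower by edgeR, with 3 that did not pass (median log2 fold change -1.39). Without the block 17 were lower, and none was higher at an unadjusted p of 0.05 or by DESeq2. Ifit3, an interferon-induced antiviral gene, was at 77.3, 192, 298 and 486 CPM in CTRL and 2.75, 37.0, 27.8 and 69.8 CPM with TGFβ (log2 fold change -3.23 ± 0.34 (SE), adjusted p = 0.000216). Its levels varied widely over the CTRL libraries, and still the highest TGFβ library was below the lowest CTRL library. Psmb9, a subunit of the immunoproteasome, fell from 8.62 ± 4.16 to 1.09 ± 0.576 CPM (log2 fold change -2.97 ± 0.21 (SE), adjusted p = 4.1e-05). The summed level of the 34 genes was 2531 to 7371 CPM in CTRL and 1369.7 to 3950.5 CPM with TGFβ. All cells carried an adenovirus, and the summed leukocyte markers were 56.4 to 149 CPM in CTRL and 25.2 to 88.6 CPM with TGFβ; the part of either in these falls was not tested.

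Growth factor genes changed in both directions, 16 of 52 higher and 23 lower (median log2 fold change -0.27). Vegfa, the main angiogenic factor, was at 62.0, 80.2, 77.9 and 87.4 CPM in CTRL and 459, 669, 459 and 510.2 CPM with TGFβ (log2 fold change 2.76 ± 0.11 (SE), adjusted p = 5.89e-06). Hbegf, a ligand of the EGF receptor, rose from 7.36 ± 1.47 to 203 ± 42.7 CPM (log2 fold change 4.77 ± 0.19 (SE), adjusted p = 6.19e-06). Pdgfc, a ligand of PDGF receptor α, rose from 6.01 ± 1.6 to 133 ± 28.8 CPM (log2 fold change 4.47 ± 0.12 (SE), adjusted p = 1.91e-06). Igf1 rose by 2.26 ± 0.11 (adjusted p = 1.19e-05). Fgf21, a metabolic hormone, had 36 reads over the 4 CTRL libraries and 3697 over the 4 TGFβ libraries (log2 fold change 6.99 ± 0.20 (SE), adjusted p = 2.05e-06). Angpt2, which destabilises vessels, fell from 287, 112, 231 and 228 CPM to 5.57, 11.5, 5.18 and 7.48 CPM (log2 fold change -4.82 ± 0.41 (SE), adjusted p = 7.88e-05). Angptl4, an inhibitor of lipoprotein lipase, fell from 160.1 ± 46.8 to 18.1 ± 4.58 CPM (log2 fold change -3.13 ± 0.26 (SE), adjusted p = 8.05e-05). Hgf, hepatocyte growth factor, fell by 0.51 (adjusted p = 0.0172) and did not pass without the block (0.15) or without number 1 (0.0899). Fgf2 was at 136 to 205 CPM in CTRL and 166 to 274 CPM with TGFβ with overlapping groups and did not pass (adjusted p = 0.062), although it did without number 2 (0.000102), without the block (0.0402), by DESeq2 with the block (0.0197) and without it (0.0214), and with the legacy form of glmQLFit (0.0312).

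In the WNT pathway 13 of 42 genes were higher and 16 lower (median log2 fold change -0.13). The receptor gene Fzd6 and Nkd2, an inhibitor inside the cell, rose by 2.26 ± 0.18 and 2.23 ± 0.10 (adjusted p = 6.77e-05 and 1e-05). Wnt2 rose from 2.44 ± 0.901 to 8.67 ± 1.69 CPM (log2 fold change 1.88 ± 0.24 (SE), adjusted p = 0.000568). Wnt4 fell from 8.08 ± 2.68 to 1.07 ± 0.425 CPM (log2 fold change -2.93 ± 0.18 (SE), adjusted p = 2.26e-05). Of the secreted antagonists, Sfrp2 was at 99.4, 10.99, 98.2 and 41.7 CPM in CTRL and 2.77, 6.06, 12.0 and 5.51 CPM with TGFβ (log2 fold change -2.96 ± 0.58 (SE), adjusted p = 0.00458), lower in 4 of 4 pairs although CTRL library 2 was within the TGFβ range. Its log2 fold change was -2.31 without number 1 and -3.61 without number 2. Dkk3 fell by 0.85 (adjusted p = 0.0102), with adjusted p-values of 0.0597 without number 1 and 0.0629 without number 4.

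In the NOTCH pathway 7 of 17 genes were higher and 4 lower (4 and 2 without the block; median log2 fold change 0.27). With 1 pair left out the number lower was 2 without number 1 and 1 without number 3 or number 4. The receptor gene Notch4 was at 2.5, 3.48, 4.66 and 6.04 CPM in CTRL and 121, 33.7, 95.6 and 104 CPM with TGFβ (log2 fold change 4.32 ± 0.33 (SE), adjusted p = 5.02e-05). The target gene Heyl rose from 5.15 ± 2.24 to 79.2 ± 44.3 CPM (log2 fold change 3.75 ± 0.32 (SE), adjusted p = 8.53e-05). Hes1, another target, rose from 15.1 ± 4.53 to 39.0 ± 3.9 CPM (log2 fold change 1.42 ± 0.14 (SE), adjusted p = 0.000155). Notch1, another receptor, fell by 0.73 (adjusted p = 0.00404). For Notch4 and Heyl, library 2 was the lowest of the TGFβ group.

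**Figure D4:**
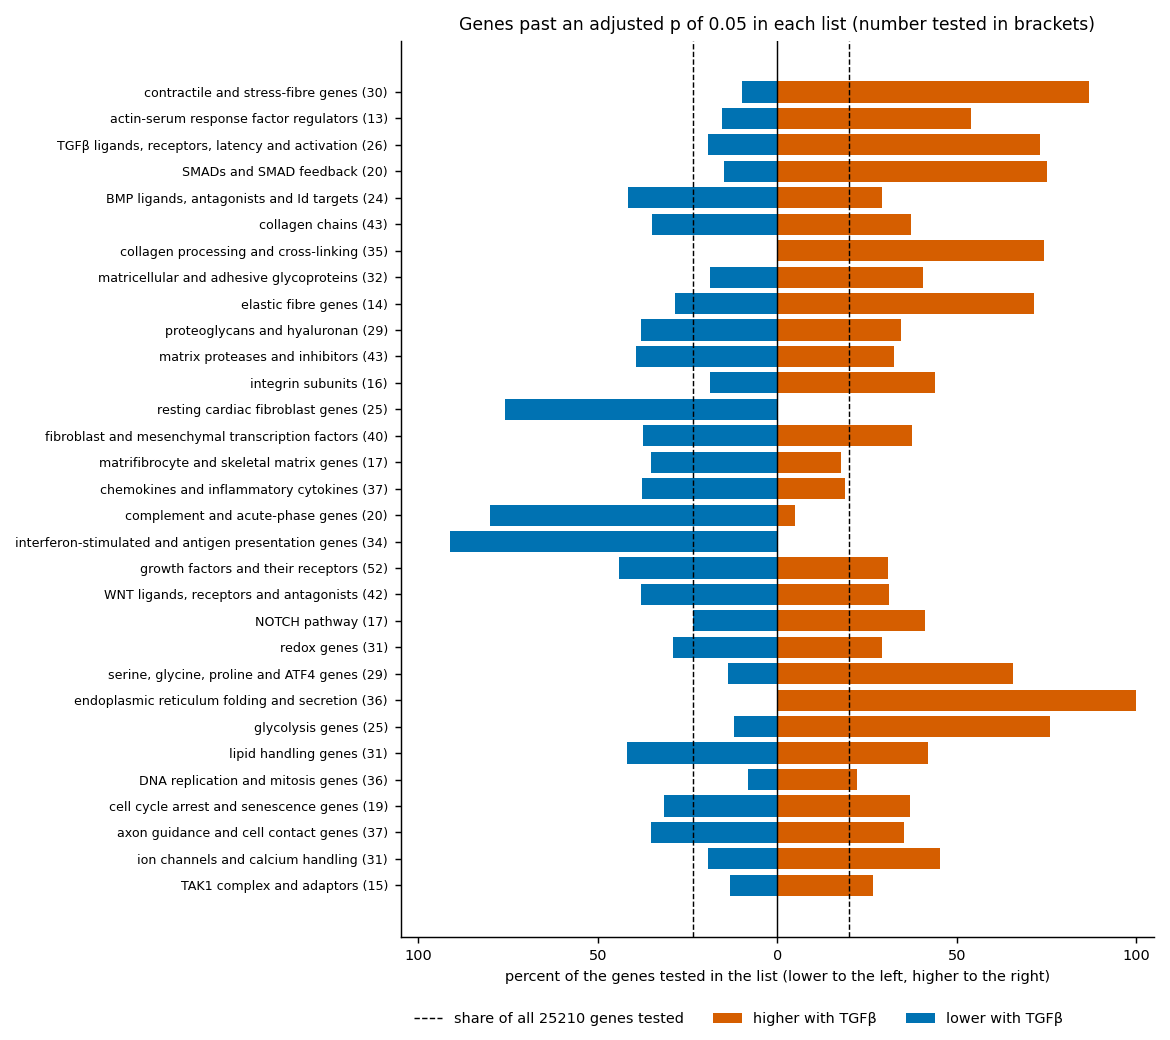
For 31 gene lists, the percent of genes tested that passed as higher (orange, right) or lower (blue, left) with TGFβ. Dashed lines mark the shares over all 25210 genes, 19.9% higher and 23.4% lower, and the bars reach from 100% higher for endoplasmic reticulum genes to 91.2% lower for interferon genes. Genes with few reads are part of these shares. With the filterByExpr filter 4937 of 15413 genes were higher and 5585 lower, which are larger shares than the dashed lines show.

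Of 29 genes of serine, glycine and proline synthesis and of the ATF4 response, 19 were higher and 4 lower, and the median log2 fold change of 2.13 was the highest of all lists. Phgdh, the first enzyme of serine synthesis, was at 29.0, 20.5, 22.9 and 26.4 CPM in CTRL and 161, 182, 130.2 and 129 CPM with TGFβ (log2 fold change 2.60 ± 0.14 (SE), adjusted p = 1.56e-05). Mthfd2, of the mitochondrial folate cycle, was at 12.1, 9.75, 14.5 and 19.6 CPM in CTRL and 152, 187, 152 and 143 CPM with TGFβ (log2 fold change 3.54 ± 0.21 (SE), adjusted p = 2.09e-05). Pycr1, the last step of proline synthesis, rose from 18.2 ± 1.33 to 108 ± 17.1 CPM (log2 fold change 2.56 ± 0.09 (SE), adjusted p = 4.01e-06). Chac1, an ATF4 target that breaks down glutathione, and Slc7a5, a transporter of large amino acids, rose by 3.83 ± 0.23 and 3.36 ± 0.20 (adjusted p = 2.02e-05 and 1.98e-05). Oat, an enzyme of ornithine and proline exchange, was one of the 4 that fell (-0.46 ± 0.07, adjusted p = 0.0014).

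Each of the 36 genes tested for endoplasmic reticulum folding and secretion was higher with TGFβ (median log2 fold change 1.25). Their summed level was 7453 to 10732 CPM in CTRL and 19288 to 21628 CPM with TGFβ, with no overlap. Hspa5, the chaperone BiP, was at 496, 667, 666 and 1029 CPM in CTRL and 1948, 2766, 2357 and 2524 CPM with TGFβ (log2 fold change 1.79 ± 0.13 (SE), adjusted p = 3.91e-05). Hyou1, another chaperone, rose from 102 ± 30.8 to 519 ± 54.8 CPM (log2 fold change 2.38 ± 0.12 (SE), adjusted p = 1.27e-05). Creb3l2, a transcription factor of the secretory pathway, rose from 145 ± 14.5 to 653 ± 90.6 CPM (log2 fold change 2.17 ± 0.10 (SE), adjusted p = 9.94e-06). The smallest rise was that of Dnajb9, at 0.29 ± 0.07 (adjusted p = 0.014, and 0.0976 without number 3).

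Glycolysis genes were higher in 19 of 25 and lower in 3 (median log2 fold change 1.34). Hk2, a hexokinase that starts glycolysis, was at 6.69, 16.0, 8.24 and 8.31 CPM in CTRL and 137, 139, 109.9 and 127 CPM with TGFβ (log2 fold change 3.77 ± 0.19 (SE), adjusted p = 1.25e-05). The lactate exporter Slc16a3 and the glucose transporter Slc2a1 rose by 3.39 ± 0.18 and 1.99 ± 0.15 (adjusted p = 1.35e-05 and 4.51e-05). Ldhb, the lactate dehydrogenase subunit that favours pyruvate, fell from 28.8 ± 11.5 to 6.76 ± 3.73 CPM (log2 fold change -2.17 ± 0.20 (SE), adjusted p = 0.000129).

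Of 31 lipid handling genes, 13 were higher and 13 lower (median log2 fold change 0.10). The desaturase gene Scd2 rose by 2.25 ± 0.12 (adjusted p = 1.31e-05). Plin4, which coats lipid droplets, fell from 83.5 ± 35.9 to 4.37 ± 0.993 CPM (log2 fold change -4.12 ± 0.36 (SE), adjusted p = 9.73e-05). Pparg, the regulator of fat storage, fell by 1.16 (adjusted p = 0.000858).

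Of 31 redox genes, 9 were higher and 9 lower (median log2 fold change -0.04). Nox4, an oxidase that makes hydrogen peroxide, was at 20.7, 14.5, 19.4 and 17.3 CPM in CTRL and 158, 99.0, 132 and 119 CPM with TGFβ (log2 fold change 2.81 ± 0.07 (SE), adjusted p = 1.91e-06). Slc7a11, the cystine importer, rose from 5.31 ± 1.48 to 60.9 ± 8.25 CPM (log2 fold change 3.54 ± 0.11 (SE), adjusted p = 3.07e-06), whereas catalase (Cat) fell by 0.68 (adjusted p = 0.000114). Gstm1, a glutathione transferase of a gene family with similar sequences, fell from 258 ± 23.2 to 19.6 ± 3.93 CPM (log2 fold change -3.73 ± 0.17 (SE), adjusted p = 9.48e-06).

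Of 36 DNA replication and mitosis genes, 8 were higher and 3 lower (22.2% and 8.33%, against 19.9% and 23.4% of all genes tested), with a median log2 fold change of 0.04. Without the block 5 were higher and 1 lower, and without number 2 the number lower was 8. Mki67, which marks cycling cells, was at 17.7, 12.1, 48.6 and 63.1 CPM in CTRL and 15.0, 22.4, 37.2 and 38.7 CPM with TGFβ, with overlapping groups (log2 fold change -0.13 ± 0.23 (SE), adjusted p = 0.698), and it was lower without number 2 (-0.45, adjusted p = 0.0101). Among those that rose were the DNA synthesis genes Tyms (1.52 ± 0.16, adjusted p = 0.000207) and Mcm6 (1.00 ± 0.08, adjusted p = 7.03e-05). Mcm7, of the same gene family as Mcm6, went the other way, with 5581 reads over the CTRL libraries and 2591 over the TGFβ libraries.

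Of 19 genes of cell cycle arrest, 7 were higher and 6 lower (median log2 fold change 0.28). Cdkn1c, an inhibitor of cyclin-dependent kinases (p57), was at 16.7, 140.5, 58.6 and 46.2 CPM in CTRL and 0.163, 3.94, 1.39 and 0.716 CPM with TGFβ (log2 fold change -5.49 ± 0.18 (SE), adjusted p = 3.33e-06). Cdkn2b, the p15 inhibitor, was at 38.8 to 47.6 CPM in CTRL and 42.6 to 76.5 CPM with TGFβ and did not pass (adjusted p = 0.137). Myc and Gadd45b rose by 2.54 ± 0.13 and 2.48 ± 0.11 (adjusted p = 1.33e-05 and 8.01e-06).

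Genes of cell contact and guidance numbered 13 higher and 13 lower of 37 (median log2 fold change -0.01). Ncam1, a cell adhesion molecule, was at 18.5, 17.8, 12.6 and 16.8 CPM in CTRL and 415, 299, 193 and 231 CPM with TGFβ (log2 fold change 4.07 ± 0.13 (SE), adjusted p = 3.08e-06). Cdh6, a cadherin, rose from 30 reads over 4 CTRL libraries to 1492 over 4 TGFβ libraries (log2 fold change 5.96 ± 0.33 (SE), adjusted p = 1.31e-05). Sema5a, a semaphorin, fell from 110.4 ± 28.2 to 27.6 ± 7.57 CPM, a 4.01-fold drop (adjusted p = 3.7e-06).

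Of 31 ion channel and calcium genes, 14 were higher and 6 lower (median log2 fold change 0.22). Piezo2, a mechanically gated channel, was at 19.0, 6.3, 13.5 and 16.2 CPM in CTRL and 659.8, 259, 373 and 446 CPM with TGFβ (log2 fold change 5.01 ± 0.12 (SE), adjusted p = 1.91e-06). Its relative Piezo1 rose by 0.63 ± 0.07 (adjusted p = 0.000354). The purine receptor P2ry1 fell from 9.0 ± 3.35 to 0.789 ± 0.359 CPM (log2 fold change -3.54 ± 0.22 (SE), adjusted p = 2.31e-05).

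The kinase gene that defines the mouse line was itself slightly higher with TGFβ. Map3k7 (chr4:31964097-32023467, plus strand) was at 149, 133, 148 and 153 CPM in CTRL and 226, 213, 214 and 220.0 CPM with TGFβ, with no overlap (log2 fold change 0.58 ± 0.06 (SE), adjusted p = 0.000249). Of 15 genes of the TAK1 complex and its adaptors, 4 were higher and 2 lower (median log2 fold change 0.10). The number lower was 4 with the filterByExpr filter, with protein-coding genes only or with the GC correction, and 5 in the fit of 40 libraries. Tab2, which couples TAK1 to ubiquitin chains, rose by 0.74 ± 0.10 (adjusted p = 0.000863). Map2k6, the kinase that links TAK1 to p38, was at 7.14, 7.68, 7.57 and 7.16 CPM in CTRL and 0.272, 0.924, 0.541 and 0.68 CPM with TGFβ (log2 fold change -3.61 ± 0.22 (SE), adjusted p = 2.38e-05). Nfkbia, the inhibitor of NF-κB that is also its target, fell by 0.91 (adjusted p = 0.000362).

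Markers of other cell types were measured in the same libraries. Endothelial markers summed to 27.4 to 28.8 CPM in CTRL and 9.16 to 13.3 CPM with TGFβ, with 1 of 9 higher and 4 lower, and Pecam1 and Cdh5 were below 2 CPM on average in each group. The number higher was 0 under 11 of 14 alternatives, every pair left out and DESeq2 among them, and the number lower was 2 without the block. Pecam1, among those lower, did not pass under 9 of the 14. Tek, the angiopoietin receptor, was at 23.6, 11.3, 21.5 and 20.0 CPM in CTRL, most of that sum in each library but number 2, and at 2.61 to 6.15 CPM with TGFβ. Of 11 leukocyte markers 0 were higher and 5 lower (2 without the block), and Ptprc (CD45) was at a mean of 1.21 CPM in CTRL and 0.838 CPM with TGFβ. Of 8 cardiomyocyte markers 1 was higher (0 with the filterByExpr filter) and 2 lower. Their sum was 16.3 to 108 CPM in CTRL and 3.85 to 14.9 CPM with TGFβ, of which most was Tnnt2, while the gene for the slow myosin heavy chain was at 0 in all 8 libraries. Mesothelial markers, with 0 higher and 1 lower of 9 (0 lower without the block), summed to 4.63 to 6.55 CPM in CTRL. Of 7 Schwann cell markers 0 were higher and 2 lower (1 without number 2 or with the filterByExpr filter). Pericyte markers summed to 179 to 708 CPM in CTRL and 753 to 1302 CPM with TGFβ, with 3 of 7 higher (Rgs4, Cspg4 and Rgs5) and 4 lower, among them Abcc9 and Kcnj8, against 2 lower without number 3. Rgs5 did not pass without the block (adjusted p = 0.124, and 0.0578 by DESeq2). Rgs4, which dampens G protein signalling, was at 1.1 to 5.26 CPM in CTRL and 55.5 to 81.0 CPM with TGFβ, and Kcnj8 and Abcc9, the channel subunits that define pericytes, fell to 0.954 and 1.25 CPM. These changes ran beside the rise of contractile genes, and their part in it was not tested. The counts of 0 in these lists in the main edgeR fit were also 0 at an unadjusted p of 0.05 and by DESeq2. Of 7 mitochondrially encoded genes tested, 3 were higher (1 without number 1) and 0 lower, among them mt-Nd6 (1.30 ± 0.35, adjusted p = 0.0181), which lies on the opposite strand to most mitochondrial genes and did not pass without number 1 (adjusted p = 0.0938).

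Beyond the lists, the largest changes among protein-coding genes at 5 CPM or more in a group and without overlap were read out by size. After Acan, the rises were led by C1qtnf3, a secreted protein of the C1q and TNF family. It was at 0.321, 3.25, 0.256 and 0.168 CPM in CTRL and 20.9, 2019, 33.9 and 37.2 CPM with TGFβ (log2 fold change 8.50 ± 0.46 (SE), adjusted p = 1.15e-05). Its mean with TGFβ was set by library 2, yet each pair rose, and without number 2 the log2 fold change was 6.87. Cdh10, a cadherin, had 17 reads over the 4 CTRL libraries and 2073 over the 4 TGFβ libraries (log2 fold change 7.24 ± 0.27 (SE), adjusted p = 3.06e-06, with 8.13 without number 2). Tnfsf18, a ligand of the TNF family, was at 0.235, 0.244, 0.768 and 0.867 CPM in CTRL and 50.3, 19.9, 35.7 and 36.6 CPM with TGFβ (log2 fold change 6.08 ± 0.29 (SE), adjusted p = 1.11e-05). The bile acid receptor gene Gpbar1 had 12 and 1003 reads (log2 fold change 6.77 ± 0.30 (SE), adjusted p = 2.05e-06). The relaxin-family receptor gene Rxfp3 had 28 and 1411 (log2 fold change 5.97 ± 0.38 (SE), adjusted p = 2.19e-05, with 5.34 without number 1 and 6.56 without number 2).

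The falls were led by Galnt15, an enzyme that starts O-glycosylation, with 2330 reads over the CTRL libraries and 9 over the TGFβ libraries (log2 fold change -7.54 ± 0.37 (SE), adjusted p = 1.91e-06, with -6.68 without number 1 and -8.61 without number 3). Adh1, an alcohol and retinol dehydrogenase, had 1031 and 10 reads (log2 fold change -6.38 ± 0.27 (SE), adjusted p = 3.87e-07), with CTRL library 2 highest. Clec3b, tetranectin, was at 145, 40.8, 88.7 and 71.9 CPM in CTRL and 2.45, 0.676, 1.49 and 1.36 CPM with TGFβ (log2 fold change -5.86 ± 0.09 (SE), adjusted p = 3.87e-07). Sucnr1, the succinate receptor, fell from 6.77 ± 2.68 to 0.22 ± 0.157 CPM (log2 fold change -4.93 ± 0.25 (SE), adjusted p = 1.19e-05). Gdpd2, a phosphodiesterase, fell from 17.8 ± 8.33 to 0.449 ± 0.191 CPM (log2 fold change -5.30 ± 0.29 (SE), adjusted p = 1.59e-05). Zfp469, which encodes a zinc finger protein of corneal stroma, was annotated in a non-coding class here and rose from 26.6 ± 3.98 to 228 ± 44.9 CPM (log2 fold change 3.09 ± 0.18 (SE), adjusted p = 1.9e-05).

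Direct tests against the other ligands showed where levels with TGFβ differed from theirs. TGFβ was compared with bFGF, IL-1β and TNFα in LacZ fibroblasts, 4 libraries against 4 with the same block, and these comparisons share their TGFβ libraries. Against bFGF 3778 genes were higher with TGFβ (15.0%) and 4154 lower (16.5%), against IL-1β 3908 (15.5%) and 4054 (16.1%), and against TNFα 4345 (17.2%) and 4668 (18.5%). Levels here are CPM over a normalization of all 40 libraries. Acta2 was at 177 ± 63.7 CPM in CTRL, 145 ± 81.3 with bFGF, 3996 ± 2181 with TGFβ, 636 ± 173 with TNFα and 339 ± 130.2 with IL-1β (mean ± SD, n = 4 libraries each). TGFβ stood highest, ahead of TNFα, the next in order (log2 difference 2.51 ± 0.15, adjusted p = 2.96e-05). Eln was at 14598 ± 3562 CPM with TGFβ and at 381 ± 289 with bFGF, its next level (5.47 ± 0.30, adjusted p = 1.88e-05). Of 30 contractile genes, 25 were higher and 1 lower with TGFβ than with bFGF, 25 and 1 than with IL-1β and 25 and 3 than with TNFα, and 24 were higher than with all 3. Endoplasmic reticulum genes were higher in 33, 27 and 34 of 36 against bFGF, IL-1β and TNFα.

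Other levels were shared or exceeded elsewhere. Ccn2 was also high with bFGF, at 1695 ± 1305 CPM against 5445 ± 1339.8 with TGFβ (2.09 ± 0.44, adjusted p = 0.00831), and Inhba was at 323 ± 57.0 CPM with bFGF and 447 ± 31.1 CPM with TGFβ (0.48 ± 0.11, adjusted p = 0.0127). Il6 was higher with IL-1β, at 318 ± 111 CPM against 84.3 ± 28.8 (-1.95 ± 0.15, adjusted p = 3.15e-05), and so was Timp1 (-0.60 ± 0.12, adjusted p = 0.00534). Of 25 glycolysis genes, 5 were higher and 5 lower with TGFβ than with IL-1β, against 17 and 2 for bFGF and 15 and 3 for TNFα. Hk2 still differed from IL-1β (0.53 ± 0.11, adjusted p = 0.0077), while for Slc2a1 the difference of 0.30 ± 0.17 did not pass (adjusted p = 0.236). Slc7a11 likewise did not pass against IL-1β (log2 difference -0.18 ± 0.24, adjusted p = 0.648). Interferon and antigen presentation genes were lower with TGFβ than with bFGF in 32, than with IL-1β in 33 and than with TNFα in 34 of 34. C3 was at 229 ± 80.5 CPM with TGFβ and at 6977 ± 919.6 with IL-1β (-5.02 ± 0.25, adjusted p = 2.93e-06). With TNFα it was at 5802 ± 1069 CPM (-4.75 ± 0.32, adjusted p = 4.48e-05). Replication and mitosis genes were lower with TGFβ than with bFGF in 33 of 36, with Mki67 at 29.6 ± 12.3 CPM with TGFβ and 159 ± 26.5 CPM with bFGF (-2.51 ± 0.20, adjusted p = 7.06e-05). Against IL-1β 14 of these genes were higher and 0 lower with TGFβ, and against TNFα 5 and 8. Map3k7 did not pass in any of these 3 comparisons, with log2 differences from bFGF (0.20 ± 0.09, adjusted p = 0.127), IL-1β (0.03 ± 0.08, adjusted p = 0.858) and TNFα (-0.10 ± 0.07, adjusted p = 0.315).

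**Figure D5:**
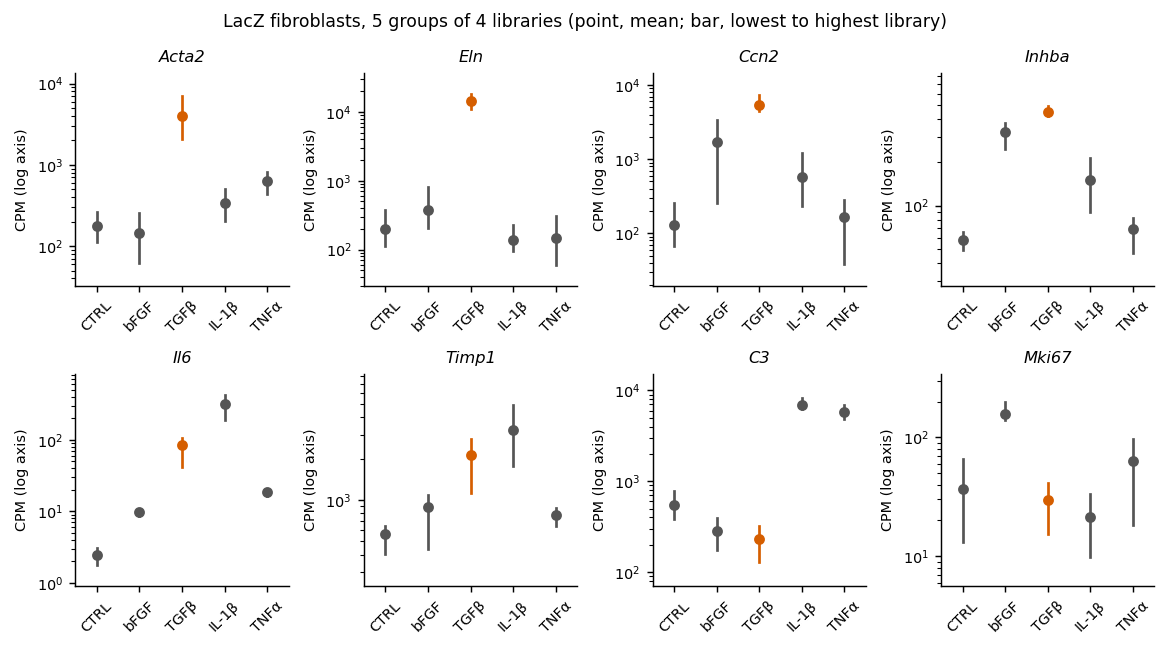
Levels in CPM (log axis, 40-library normalization) of 8 genes in LacZ fibroblasts with no ligand (CTRL), bFGF, TGFβ, IL-1β or TNFα, as the mean (point) and the range of 4 libraries (bar). TGFβ, in orange, is highest for Acta2, Eln, Ccn2 and Inhba by mean, and IL-1β is above it for Il6, Timp1 and C3.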

How the data were processed

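Poly-A RNA was sequenced in single reads, and the authors deposited 1 table of raw read counts per gene for 40 libraries, aligned to mm10 (GRCm38) with STAR per the study's methods and counted with HTSeq 0.10.0 after FastQC 0.10.1 per the labels. The annotation release and the strand setting are not given in the sources used here, and the library kit differs between labels (NEBNext Ultra II) and methods (TruSeq Stranded mRNA), so overlapping genes on opposite strands may share reads. Names, positions and exon lengths came from GENCODE M21, which held 52133 of 55414 identifiers and 99.6% of counts. The study calls them biological replicates from male mice, and neither it nor the labels say whether a number marks 1 animal across groups, so p-values measure the spread between these samples.

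Genes with at least 10 counts over the 40 libraries were tested (25210) with edgeR 4.0.16 (glmQLFit and glmQLFTest, TMM) in R 4.3.3, with the replicate number as a block, and Benjamini-Hochberg adjusted p-values over all genes tested. The comparison was set in advance as paired by replicate number. In a later check the same-numbered libraries deviated together, with correlations of 0.57 to 0.60 over 10643 genes against -0.42 to 0.34 for other pairs. No pair of libraries of a group agreed within counting noise. CPM means and SDs are over 4 libraries of the 8-library normalization unless stated. Data were simulated on the 25210 genes, with 200 changed among those at a CTRL mean of 1 CPM or more. They gave 100 of 100 recovered at a log2 fold change of 2, 87 of 100 at 1, and 9 false calls among 196. Far fewer genes were changed than passed in the data. These rates therefore do not carry over to genes with few reads or to so wide a change. Alternatives were fits without the block, DESeq2 1.42.0, RLE normalization, other filters, each pair left out, all 40 libraries, a GC correction, protein-coding genes and, added after seeing the data, the legacy form of glmQLFit. Levels with the other ligands used 1 normalization of all 40 libraries, and the libraries with Cre were not compared.

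The comparison and the 38 gene lists were chosen with earlier results of these data known. Named genes were a core set, and in each list the 3 largest rises and 2 largest falls among genes past the threshold with a mean of 5 CPM or more in a group and no overlap. To these came the 10 largest rises and falls among protein-coding genes and up to 3 non-coding genes each way, by the same conditions, of which those with a role worth a clause are described. Genes named outside this rule (Abcc9, Cd34, Cdh5, Cnn2, Col12a1, Col5a2, Col5a3, Des, Dnajb9, Gsn, Kcnj8, Myh11, Myl6, Mylk, Pecam1, Ptprc, Rgs5, Synpo2, Tnnt2 and Vcl) were chosen after their values were seen. Some genes that the rule names are not reported here. RefSeq sequences are those of GRCm38.p6. Figures were drawn with matplotlib 3.10.9.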

Additional observations from a re-analysis of the deposited data

Results flagged for a closer look

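In 48 of 412 groups of 4 libraries, over the genes named above, 1 library lay so far from the other 3 that the gap to the nearest passed Dixon's limit at the 95% level (11.7%). Chance gives about 1 in 20. The library was number 2 in 36 of them, number 1 in 9, number 3 in 0 and number 4 in 3. The TGFβ library of number 2 was the high one for Bmpr1b at 29.4 CPM (11.3 to 12.2 in the other 3), C1qtnf3 at 2019 (20.9 to 37.2), Cnn1 at 227 (22.2 to 41.3), Col10a1 at 6.65 (0.541 to 0.761) and Col12a1 at 3170.4 (860.2 to 1047). It was also high for Col8a2 at 90.2 CPM (28.9 to 33.9 in the other 3), Cthrc1 at 536 (111 to 179), Gadd45b at 137 (108 to 111), Grem1 at 1274 (53.2 to 77.7) and Mfap4 at 921 (288 to 314). In the same TGFβ library stood Myh11 at 15.4 CPM (0.978 to 1.88 in the other 3), Mylk at 27.0 (2.34 to 4.43), Ogn at 228 (67.4 to 86.0), Tab2 at 262 (185 to 189.7) and Tgfb3 at 422 (181 to 191). Further high values there were Tnc at 4116 CPM (689 to 871 in the other 3). The TGFβ library of number 2 was low for Smad6 at 27.5 CPM (45.3 to 47.5 in the other 3). The CTRL library of number 2 was the high one for Adamts15 at 176 CPM (23.9 to 28.7 in the other 3), Adh1 at 14.3 (2.09 to 2.55), C1qtnf3 at 3.25 (0.168 to 0.321), Ccn4 at 24.8 (13.2 to 14.4) and Cnn1 at 6.24 (1.0 to 1.84). Other genes high in it were Col12a1 at 175 CPM (71.3 to 81.9 in the other 3), Cthrc1 at 201 (11.02 to 16.6), Fzd6 at 57.3 (10.3 to 17.2), Mylk at 88.9 (6.29 to 20.0) and P2ry1 at 14.0 (6.86 to 7.86). High in that CTRL library too were Pdgfra at 1743 CPM (940.3 to 994 in the other 3), Runx1 at 29.6 (15.2 to 16.8), Tgfbr3 at 307 (97.7 to 117), Thbs1 at 1677 (514 to 553) and Tnc at 288 (117 to 121). That CTRL library was the low one for Bgn at 4200.2 CPM (6887 to 7409 in the other 3), Col8a1 at 204 (615 to 664), P4ha3 at 18.9 (61.3 to 66.9) and Synpo2 at 16.0 (33.7 to 35.5). Of number 1, the CTRL library was highest for Bmpr2 at 202 CPM (152 to 159.6 in the other 3), Ccn1 at 155 (56.9 to 69.0) and Itga10 at 9.4 (4.22 to 4.79). Of number 1, the CTRL library was lowest for Gdf10 at 1.8 CPM (8.77 to 9.8 in the other 3) and Scd2 at 464 (523 to 529). Of number 1, the TGFβ library was highest for Ccn4 at 1137 CPM (800.5 to 829.6 in the other 3), Gm32255 at 19.7 (5.88 to 7.62), Igf1 at 378 (225 to 247) and Inhba at 484 (406 to 418). Of number 4, the CTRL library was lowest for Kcnj8 at 2.71 CPM (4.25 to 4.36 in the other 3). Of number 4, the TGFβ library was highest for Nfkbia at 14.8 CPM (13.4 to 13.6 in the other 3) and Ptprc at 1.58 (0.586 to 0.598).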

How the results depend on the processing

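The counts of genes higher and lower with TGFβ stayed within 1.5 times of the reported values against CTRL under all alternatives except the minimum fold change. Over those alternatives, including DESeq2 with and without the block, other normalization and filters, a correction for GC content and 1 fit of all 40 libraries, the range was 4033 to 5443 higher and 4497 to 6790 lower. A log2 fold change of at least 1 in size, by its construction, left 1722 higher and 3361 lower against CTRL, so that the share of higher genes among calls went from 45.9% to 33.9%. It left 1157 and 2263 against bFGF (47.6% to 33.8% higher), 1157 and 1992 against IL-1β (49.1% to 36.7%) and 1428 and 2336 against TNFα (48.2% to 37.9%). With 1 pair left out, genes higher against IL-1β numbered 2535 to 3263, the lowest without number 3. Without the replicate block 4550 genes were higher and 5126 lower against CTRL. Of 2871 values of named genes under 14 alternatives, 2804 kept their direction and their side of the threshold, 48 no longer passed, 9 came to pass and 10 changed sign, in 27 of 206 genes. Those that changed sign belonged to genes that had not passed. Smad6 was 0.0197 with the GC correction and -0.22 to 0.10 with 1 pair left out. Col15a1 was -0.00092 in the fit of 40 libraries and -0.25 to 0.32 with 1 pair left out. With 1 pair left out, Grem1 ran from -0.46 to 0.77, Ccl2 from -0.40 to 0.055, Mki67 from -0.45 to 0.075 and Myh11 from -0.79 to 0.98, and by DESeq2 with the block Myh11 was -0.0124. Of 1064 counts over gene lists, 60 moved by more than 1.5 times, 53 of them from a count of 5 or less, and 22 of the 60 came without the block. The cause of these changes was not tested. At this depth genes with few reads in a group, such as Acan and Galnt15, have fold changes that depend on a handful of counts.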

Other observations

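Genes outside the protein-coding class also changed. Gm32255 was at 0.0214, 0.102, 0.188 and 0.14 CPM in CTRL and 19.7, 5.88, 7.62 and 7.2 CPM with TGFβ (log2 fold change 6.36 ± 0.35 (SE), adjusted p = 1.19e-05, with 5.55 without number 1). C430002N11Rik rose from 1.21 ± 0.449 to 10.7 ± 2.38 CPM (log2 fold change 3.16 ± 0.14 (SE), adjusted p = 8.79e-06). Among those that fell, A530020G20Rik went from 20.9, 16.1, 14.9 and 16.4 CPM to 0.489, 1.44, 0.695 and 1.07 CPM (log2 fold change -4.20 ± 0.25 (SE), adjusted p = 2.18e-05), and in each pair the TGFβ library was the lower one. Gm13056 and Gm19522 fell from 6.89 ± 1.07 to 1.02 ± 0.354 CPM (log2 fold change -2.77 ± 0.15 (SE), adjusted p = 1.44e-05) and from 8.55 ± 5.18 to 1.38 ± 0.512 CPM (log2 fold change -2.57 ± 0.24 (SE), adjusted p = 0.000131). These RNAs have no role that the annotation used here gives, and reads from an overlapping gene on the other strand cannot be told apart in them.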
